A study of Mus musculus with 9 samples.

Results

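The 10 genes examined here belong to canonical Wnt signaling and were measured in primary mouse lung endothelial cells (MLEC) with and without the JNK protein kinases. They were chosen by name, as the receptors and co-receptors *Fzd4*, *Fzd6*, *Lrp5* and *Lrp6*, the transducer *Ctnnb1*, the nuclear factors *Lef1* and *Tcf7l2*, and the target or feedback genes *Axin2*, *Apcdd1* and *Nkd1*. All 10 were found among the 37104 loci of the deposited tables, each at 1 locus. RNA-seq was performed on 3 groups of 3 libraries each, all from adult C57BL/6J mice that were 10 to 12 weeks old and all homozygous for Jnk3-/-. ECtrl cells carried Cdh5-Cre+ with Jnk1+/+ and Jnk2+/+. EfCtrl cells were Cdh5-Cre- and had the alleles Jnk1LoxP/LoxP and Jnk2LoxP/LoxP, so that the floxed genes were intact. E3KO cells had the same floxed alleles together with Cdh5-Cre+. The Cdh5 promoter directs Cre to endothelial cells. Cells were isolated separately for every library, from pooled lungs of several mice, selected on ICAM2 and grown in culture, so the measurements describe cultured cells.

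In canonical signaling a Wnt ligand binds a Frizzled receptor together with LRP5 or LRP6, which prevents the destruction complex of Axin, APC and GSK3 from marking beta-catenin for degradation. Beta-catenin then enters the nucleus and acts with TCF/LEF factors on target genes, several of which encode inhibitors of the same pathway. In endothelial cells the pathway is known for its part in vascular development of the retina and brain, where Norrin acts through FZD4, and for control of the blood-brain barrier. The comparison of E3KO with both control groups asks whether loss of JNK goes with a change in the RNA of these genes. The comparison of EfCtrl with ECtrl measures how far the controls differ from each other.

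The DNA before an annotated start of 4 pathway genes is shown because these genes are at the extremes of level or of change described below. *Ctnnb1* had the highest level of the 10 genes. *Axin2* is a classical target of beta-catenin and was barely detected. *Lef1* had the lowest mean in the control cells, though not in E3KO, and was the only one of the 10 genes with the core letters of a TCF/LEF site in the windows searched. The window shown for *Lef1* lies inside the gene, before an internal start, and not upstream of the whole gene. That shown for *Ctnnb1* also lies inside the deposited locus, which starts at base 120924455, and is not the only window of that gene. *Dkk2*, a secreted ligand of LRP5 and LRP6, is another pathway gene and had the largest decrease of the Wnt pathway genes called in E3KO cells. Each sequence holds the 250 bases before an annotated RefSeq start on GRCm38.p6, is written 5′ to 3′ on the plus strand, on which all 4 genes lie, and has in capitals any match to CTTTGA or its reverse complement TCAAAG.
*Ctnnb1*, chr9:120933150-120933399: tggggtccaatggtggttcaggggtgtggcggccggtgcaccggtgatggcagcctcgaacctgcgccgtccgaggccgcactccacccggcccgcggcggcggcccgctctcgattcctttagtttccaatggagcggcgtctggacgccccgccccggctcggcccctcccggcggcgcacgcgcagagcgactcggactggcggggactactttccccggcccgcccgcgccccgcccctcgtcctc
*Axin2*, chr11:108920099-108920348: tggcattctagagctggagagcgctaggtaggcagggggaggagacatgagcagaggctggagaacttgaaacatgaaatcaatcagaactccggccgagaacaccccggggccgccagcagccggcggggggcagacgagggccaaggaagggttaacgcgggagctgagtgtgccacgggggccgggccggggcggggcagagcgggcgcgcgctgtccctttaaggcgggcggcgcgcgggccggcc
*Lef1*, chr3:131156044-131156293: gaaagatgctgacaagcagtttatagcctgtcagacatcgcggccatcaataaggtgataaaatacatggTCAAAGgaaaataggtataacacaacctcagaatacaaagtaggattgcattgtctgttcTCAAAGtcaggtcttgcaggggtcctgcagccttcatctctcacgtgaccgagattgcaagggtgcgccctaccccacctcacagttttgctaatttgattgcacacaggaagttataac
*Dkk2*, chr3:132085042-132085291: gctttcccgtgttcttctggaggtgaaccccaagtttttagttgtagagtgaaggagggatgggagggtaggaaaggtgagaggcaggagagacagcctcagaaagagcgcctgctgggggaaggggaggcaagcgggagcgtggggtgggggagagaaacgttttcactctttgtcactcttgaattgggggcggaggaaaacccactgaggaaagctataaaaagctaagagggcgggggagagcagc

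Windows were read for 6 of the 10 genes (*Axin2*, *Ctnnb1*, *Fzd4*, *Lef1*, *Nkd1* and *Tcf7l2*), 11 windows in all, and the window printed for *Lef1* was 1 of 4 for that gene. Chromosome 18, where *Apcdd1* lies, was left out for these genes but not for the shares over all windows. The TCF/LEF core CTTTGA, searched on both strands, occurred in 1 of the 11 windows, the *Lef1* window above, which holds 2 matches. It occurred in 13.8% of all 32851 mouse windows of this length. The AP-1 letters TGANTCA, which are bound by JUN and FOS proteins, occurred in 0 of the 11 windows and in 6.75% of all windows. The *Ctnnb1* and *Axin2* windows consist of 74.8% and 69.2% G and C bases, while the *Dkk2* window has 55.6% and the *Lef1* window 44.8%. A match to these letters is a description of the sequence and says nothing of binding.

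Values are FPKM as deposited, the number of sequenced fragments of a gene scaled by its transcript length and by the mapped fragments of the library. The summed FPKM of a library was between 656089 and 908401 in 8 libraries. The library labelled E3KO replicate 1 stood apart with a sum of 9841812, of which 96.4% fell in 10 loci. *Mapk8* (JNK1) was also not lowered in that library, at 20.7 FPKM against 14.0 to 17.9 in the controls, while E3KO replicates 2 and 3 were at 8.77 and 4.65. *Mapk9* (JNK2) was at 27.6, 35.1 and 20.7 in E3KO replicates 1 to 3, below the 42.7 to 50.9 of the controls, and *Mapk10* (JNK3) was at 0.270 or less in all 9 libraries. For the genes named below, the comparison of E3KO with both controls is therefore also given without the library labelled E3KO replicate 1. All 10 endothelial markers, *Cdh5* and *Pecam1* among them, were above 1 FPKM in every library. The lymphatic marker *Lyve1* was also high, from 1513 to 2050 FPKM, and *Prox1*, which specifies lymphatic endothelial cells, was at 117 to 158 in the controls and 58.1 to 79.2 in E3KO cells. In these bulk samples fewer cells of a type and less RNA per cell cannot be told apart.

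**Figure D1:**
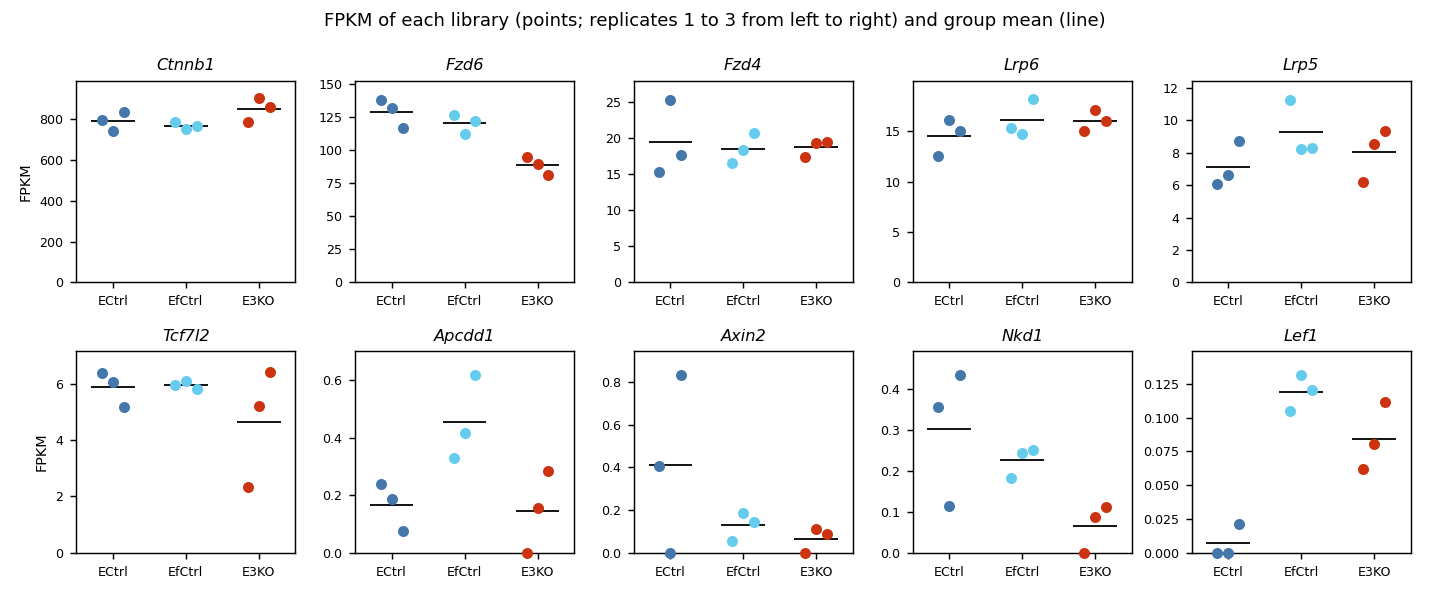
FPKM (vertical axes, linear, each starting at 0) of the 10 genes in the 3 libraries of ECtrl, EfCtrl and E3KO, with each library as a point and the group mean as a line. The E3KO libraries of *Fzd6* (81.6 to 94.8) and *Nkd1* (0 to 0.112) lie below all 6 control libraries, and for the other 8 genes E3KO and control libraries overlap.

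*Fzd6* was the only receptor gene called in E3KO cells against both controls. FZD6 is a Frizzled receptor with a known role in planar cell polarity, and it was by far the most abundant of the receptor genes measured here. *Fzd6* (chromosome 15, 39006280 to 39038186, mm10) was at 138, 132 and 117 FPKM in the ECtrl libraries, at 127, 113 and 122 in EfCtrl, and at 94.8, 89.3 and 81.6 in E3KO. Every E3KO library was below every control library, and the controls overlapped each other. The mean was 125 ± 9.58 FPKM (SD, n = 6) in the controls and 88.6 ± 6.62 (SD, n = 3) in E3KO, a ratio of 1.41 of controls to E3KO. On the log2(FPKM + 1) scale *Fzd6* fell by 0.49 (SE 0.10, 95% interval -0.72 to -0.26, adjusted p = 0.0368 by limma). The exact two-sided permutation test of 3 against 6 libraries, not corrected for the 10 genes tested, gave p = 0.0119, the smallest value that its 84 splits allow.

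The decrease of *Fzd6* had a similar size against each control group but did not pass the threshold against either alone. The difference was -0.54 from ECtrl (adjusted p = 0.0563) and -0.44 from EfCtrl (adjusted p = 0.118), and EfCtrl differed from ECtrl by -0.10 (adjusted p = 1). Without the library labelled E3KO replicate 1 the difference from both controls was -0.54 (adjusted p = 0.0416). The call was lost in 7 of the 9 fits that left out 1 library, with adjusted p from 0.0573 to 0.124, namely without ECtrl replicate 1 or 2, any EfCtrl replicate, or E3KO replicate 2 or 3, and it was kept without ECtrl replicate 3. It was also lost when each library was centred on its median (difference -0.40, adjusted p = 0.0677). The E3KO libraries lay below all control libraries in the full data, which the omission of a library cannot change, so these fits do not test that separation.

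*Fzd6* was 1 of 6 of these genes that passed the filter of a mean of at least 1 FPKM, and the only 1 of the 6 called. Of all 11306 genes tested against both controls, 4.18% were called, 1.3% as higher and 2.88% as lower. The 3 E3KO libraries lay entirely above or entirely below the 6 control libraries in 16.2% of all genes tested, entirely below in 11.3%, and in 1 of the 6 genes. Against ECtrl alone, 2.01% of genes were called, and against EfCtrl alone 0.84%, with none of the 6 genes in either. Without the library labelled E3KO replicate 1, 327 genes in all were called against both controls where 473 had been, 118 where 227 had been against ECtrl, and 1 where 95 had been against EfCtrl. Between EfCtrl and ECtrl limma called 0% of genes, with 201 genes at an unadjusted p under 0.05 and 0 of the 6. The median difference from both controls was -0.01 over the 6 genes and -0.09 over all genes. Of the genes called against both controls in all 9 libraries, 31.1% were higher in E3KO cells, a share of 47.2% when libraries were centred.

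The second Frizzled gene of those chosen, *Fzd4*, which encodes the receptor for Norrin, showed no such difference. *Fzd4* (chromosome 7, 89404366 to 89410110) was at 15.4, 25.4 and 17.7 FPKM in ECtrl, at 16.6, 18.3 and 20.7 in EfCtrl, and at 17.4, 19.4 and 19.5 in E3KO. The E3KO libraries lay inside the range of the controls. The difference from both controls was -0.00 on the log2 scale, with a 95% interval from -0.36 to 0.35 (adjusted p = 0.992 by limma, exact permutation p = 0.988). Without the library labelled E3KO replicate 1 it was 0.0471 (adjusted p = 0.905).

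The co-receptors *Lrp5* and *Lrp6* encode single-pass membrane proteins that bind Wnt together with Frizzled. *Lrp6* (chromosome 6, 134446476 to 134566965) was at 12.5, 16.1 and 15.1 FPKM in ECtrl, at 15.3, 14.8 and 18.2 in EfCtrl, and at 15.1, 17.1 and 16.1 in E3KO. Its groups overlapped, and E3KO differed from both controls by 0.07 (95% interval -0.19 to 0.33, adjusted p = 0.736 by limma), or by 0.11 without the library labelled E3KO replicate 1 (adjusted p = 0.645). *Lrp5* (chromosome 19, 3584828 to 3686564) was at 6.05, 6.66 and 8.73 FPKM in ECtrl, at 11.2, 8.23 and 8.28 in EfCtrl, and at 6.21, 8.55 and 9.35 in E3KO. These groups overlapped as well, and the difference was -0.02 (95% interval -0.40 to 0.36, adjusted p = 0.953 by limma). Without the library labelled E3KO replicate 1 it was 0.13 (adjusted p = 0.675). For *Fzd4*, *Lrp5* and *Lrp6* a p above the threshold therefore does not show equal levels, and the intervals give the range of differences that these libraries allow.

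*Ctnnb1* encodes beta-catenin, which acts both in this pathway and at adherens junctions. It was at 797, 741 and 836 FPKM in ECtrl, at 786, 751 and 765 in EfCtrl, and at 787, 905 and 857 in E3KO. All 3 E3KO libraries were above all EfCtrl libraries, whereas the library labelled E3KO replicate 1 lay within the range of ECtrl. The difference from both controls was 0.12 on the log2 scale (95% interval -0.08 to 0.33) and was not called by limma (adjusted p = 0.428). The exact permutation test, which was not corrected for the 10 genes tested, gave p = 0.0476. Without the library labelled E3KO replicate 1 the difference was 0.18 (adjusted p = 0.274 by limma) and the other two E3KO libraries lay above all controls. The permutation p rose to between 0.0536 and 0.214 without any 1 of 7 other libraries, the exception being ECtrl replicate 3 (p = 0.0357). The deposited locus (chromosome 9, 120924455 to 121277197) overlaps 5 other annotated genes, an antisense gene and a processed pseudogene among them. Of these, *Ulk4* lies on the opposite strand and has its own row at 4.88 to 16.5 FPKM.

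*Tcf7l2* encodes TCF4, a TCF/LEF factor that recruits beta-catenin to DNA. *Tcf7l2* (chromosome 19, 55741810 to 55933654) was at 6.38, 6.07 and 5.17 FPKM in ECtrl, at 5.96, 6.09 and 5.81 in EfCtrl, and at 2.32, 5.20 and 6.41 in E3KO. The library labelled E3KO replicate 1 was the lowest of all 9, and the other two E3KO libraries reached from the bottom of the control range to just above its top. The difference from both controls was -0.37 (95% interval -0.89 to 0.15, adjusted p = 0.356 by limma). It was -0.03 without that library (adjusted p = 0.915).

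**Figure D2:**
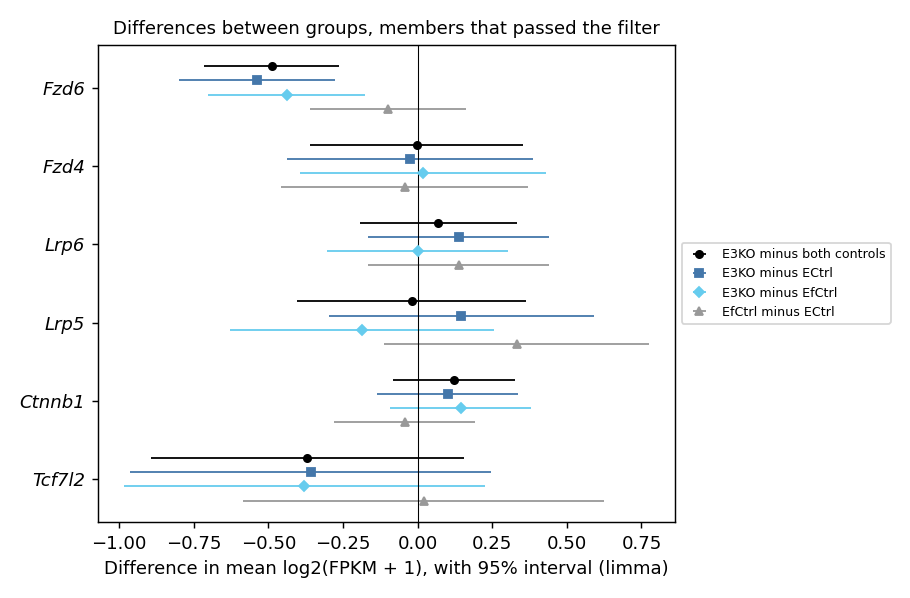
Differences in mean log2(FPKM + 1) with 95% intervals from limma (horizontal axis) for the 6 genes that passed the filter, in 4 contrasts shown by marker and color. For *Fzd6* the intervals of all 3 contrasts with E3KO lie below 0 (-0.72 to -0.26 against both controls), and for the other 5 genes each interval includes 0.

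The remaining 4 genes, *Lef1*, *Axin2*, *Apcdd1* and *Nkd1*, were near the bottom of the measured range. No library exceeded 0.831 FPKM for any of them, so they did not pass the filter. The number of fragments behind these values is unknown and several are listed at 0. With the filter removed, limma called none of them in any contrast, and their adjusted p-values against both controls were 0.209 for *Nkd1*, 0.405 for *Apcdd1*, 0.587 for *Axin2* and 0.685 for *Lef1*.

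*Nkd1*, which encodes an inhibitor that binds Dishevelled, was the one low gene without overlap. *Nkd1* (chromosome 8, 88521344 to 88594887) was at 0.356, 0.115 and 0.434 FPKM in ECtrl, at 0.184, 0.244 and 0.253 in EfCtrl, and was listed at 0, 0.0874 and 0.112 in E3KO. The highest E3KO library (0.112) was just under the lowest control library (0.115). Among the 9123 symbols with a mean below 1 FPKM and a value above 0 in some library, 1.93% had all E3KO libraries below all controls. The exact permutation test gave p = 0.0357 for *Nkd1*, 0.0536 without any 1 EfCtrl library, and 0.0714 without any 1 E3KO library, where the smallest possible p is 0.0357.

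*Axin2* and *Apcdd1* encode further inhibitors of the pathway, in the destruction complex and at the cell surface. *Axin2* (chromosome 11, 108920349 to 108950783) was at 0.404, 0 and 0.831 FPKM in ECtrl, at 0.0538, 0.188 and 0.144 in EfCtrl, and at 0, 0.113 and 0.0884 in E3KO. The wide spread of ECtrl covered both other groups (exact permutation p = 0.31 for E3KO against both controls, 0.571 without the library labelled E3KO replicate 1). *Apcdd1* (chromosome 18, 62922327 to 62953195) was at 0.240, 0.189 and 0.0745 FPKM in ECtrl, at 0.330, 0.417 and 0.618 in EfCtrl, and at 0, 0.155 and 0.285 in E3KO. Here the E3KO libraries overlapped ECtrl and lay below EfCtrl (exact permutation p = 0.226 for E3KO against both controls, 0.607 without the library labelled E3KO replicate 1).

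*Lef1* encodes a TCF/LEF factor whose own gene is a target of beta-catenin. *Lef1* (chromosome 3, 131110471 to 131224356) was listed at 0, 0 and 0.0217 FPKM in ECtrl, at 0.105, 0.131 and 0.121 in EfCtrl, and at 0.0616, 0.0803 and 0.112 in E3KO (exact permutation p = 0.512 for E3KO against both controls, 0.5 without the library labelled E3KO replicate 1). For *Lef1* and *Apcdd1* all EfCtrl libraries lay above all ECtrl libraries, so the 2 control groups separated from each other while E3KO overlapped 1 of them. Such separation between the controls occurred in 6.66% of the 9123 symbols of this level, and limma without the filter gave an adjusted p of 1 for both genes. With 3 libraries against 3, the exact permutation test cannot go below 0.1. The annotation places an antisense gene within *Lef1*, within *Axin2* and at the deposited locus of *Ctnnb1*. Since the strand setting of the counting is not given, reads of the 2 strands cannot be told apart there.

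The order of the levels was the same in each group for the first 6 genes. In the 6 control libraries the mean levels were 779 FPKM for *Ctnnb1*, 125 for *Fzd6*, 19.0 for *Fzd4*, 15.3 for *Lrp6*, 8.20 for *Lrp5* and 5.91 for *Tcf7l2*, with the 4 low genes under 1. FPKM is scaled by transcript length, so these levels can be compared between genes. Neighbors in this order were compared within libraries by an exact two-sided sign-flip test over the 6 control libraries, with adjustment over the 9 pairs. *Lrp5* exceeded *Tcf7l2* in 5 of 6 libraries, a difference that was not resolved (exact p = 0.0625, adjusted p = 0.0804). *Apcdd1* and *Axin2* were not resolved (exact p = 0.75), nor were *Axin2* and *Nkd1* (exact p = 0.844). The other 6 pairs kept 1 order in 6 of 6 libraries (exact p = 0.0312, the smallest possible, adjusted p = 0.0469). *Fzd6* and *Fzd4* thus exceeded *Lrp6* and *Lrp5*. The other Frizzled genes, read among the further pathway genes below, did not. Their highest control mean was that of *Fzd8*, at 3.12 FPKM. The gene for beta-catenin exceeded *Fzd6* by 2.64 ± 0.129 (SD, n = 6) on the log2(FPKM + 1) scale.

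The 3 genes whose pattern over the 9 libraries was most like that of *Fzd6* were *Enpp4*, *Cntln* and *Brca1*, with Pearson r of 0.993, 0.991 and 0.98 of log2(FPKM + 1). In all 3 the E3KO libraries were below all control libraries, as for *Fzd6*, and the correlation is a description over 9 libraries that share this grouping. *Enpp4* ranged from 12.9 to 15.5 FPKM over the control libraries and from 9.74 to 11.1 over the E3KO libraries. *Cntln*, which encodes a centriole protein, was at 3.76 to 5.87 and 2.07 to 2.60. *Brca1*, a DNA repair gene, was at 1.61 to 2.28 and 1.05 to 1.26.

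Outside these 10 genes, 93 further genes of the pathway were read in 7 lists by role. Of the 93, 45 passed the filter and 13 were listed at 0 in all libraries. Against both controls, 1 was called higher and 1 lower, 4.44% of those tested and close to the 4.18% over all genes. The E3KO libraries lay entirely above the controls in 4 of the 45 and entirely below in 8, together 26.7% against 16.2% over all genes. The median difference over the 45 was 0.01, with -0.09 over all genes.

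**Figure D3:**
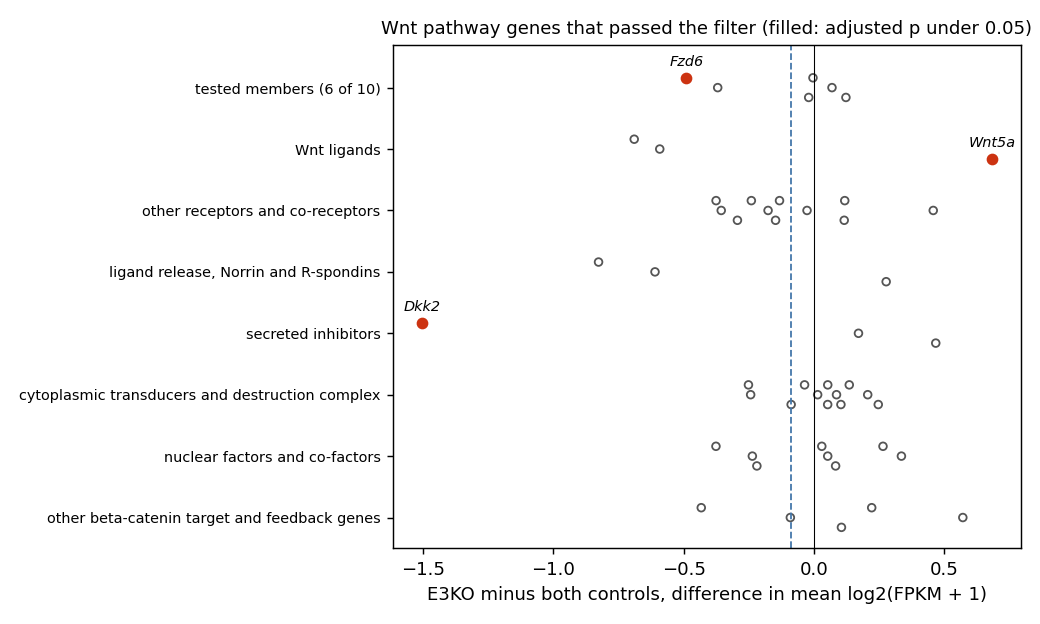
Difference in mean log2(FPKM + 1) between E3KO and both controls (horizontal axis) for the 6 tested of the 10 genes and for 45 further pathway genes by list, with filled points for genes with an adjusted p under 0.05 and a dashed line at the median of all genes (-0.09). *Dkk2* (-1.5), *Fzd6* (-0.49) and *Wnt5a* (0.68) are the filled points.

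Among 19 Wnt ligand genes 3 passed the filter. In each of the 3 the E3KO libraries were apart from the controls, as in 16.2% of all genes tested, and only *Wnt5a* was called. *Wnt5a*, a ligand known mostly for signaling without beta-catenin, was at 5.16, 6.56 and 6.01 FPKM in ECtrl, at 4.74, 5.70 and 4.71 in EfCtrl, and at 8.81, 8.64 and 10.7 in E3KO. It rose by 0.68 on the log2 scale (SE 0.12, adjusted p = 0.0223 by limma) and was called against EfCtrl (adjusted p = 0.0463) but not against ECtrl (adjusted p = 0.0667). Of the 9 fits without 1 library, 1 kept the call against EfCtrl, that without ECtrl replicate 1, and the adjusted p reached 0.212 in the others. The call against both controls was lost without EfCtrl replicate 1, EfCtrl replicate 3 or E3KO replicate 3 (adjusted p = 0.0639, 0.069 and 0.0955), and without the library labelled E3KO replicate 1 it held (difference 0.72, adjusted p = 0.0376). *Wnt9a* and *Wnt2*, named after their values were seen, had differences of -0.69 (adjusted p = 0.0559) and -0.59 (adjusted p = 0.165). *Wnt9a* ranged from 2.66 to 3.79 FPKM over the control libraries and from 1.01 to 2.08 over E3KO, and *Wnt2* was at 1.33 to 2.72 and 0.219 to 1.24. The differences without the library labelled E3KO replicate 1 were -0.51 (adjusted p = 0.0921) and -0.34 (adjusted p = 0.359).

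The secreted inhibitors held the largest change. *Dkk2* was at 17.2, 11.2 and 10.2 FPKM in ECtrl, at 11.7, 9.05 and 11.4 in EfCtrl, and at 3.14, 4.45 and 2.88 in E3KO. All E3KO libraries were below all controls, and the control mean was 3.39 times that of E3KO. *Dkk2* fell by 1.5 on the log2 scale (SE 0.19, adjusted p = 0.012 by limma) and was also called against ECtrl (adjusted p = 0.0208) and against EfCtrl (adjusted p = 0.0375). The call against ECtrl was lost without ECtrl replicate 1, EfCtrl replicate 2 or 3, or E3KO replicate 3 (adjusted p from 0.0509 to 0.0942), and that against EfCtrl without any library but ECtrl replicate 1 or 3 (adjusted p from 0.0543 to 0.188). Without E3KO replicate 3 the adjusted p against both controls was 0.0723, and without the library labelled E3KO replicate 1 it was 0.0311. Of 13 inhibitor genes 3 passed the filter, and the most abundant, *Frzb*, which encodes a soluble Frizzled-related protein, ranged from 12.3 to 18.01 FPKM over the control libraries and from 16.2 to 19.5 over E3KO (adjusted p = 0.413, or 0.719 without the library labelled E3KO replicate 1).

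**Figure D4:**
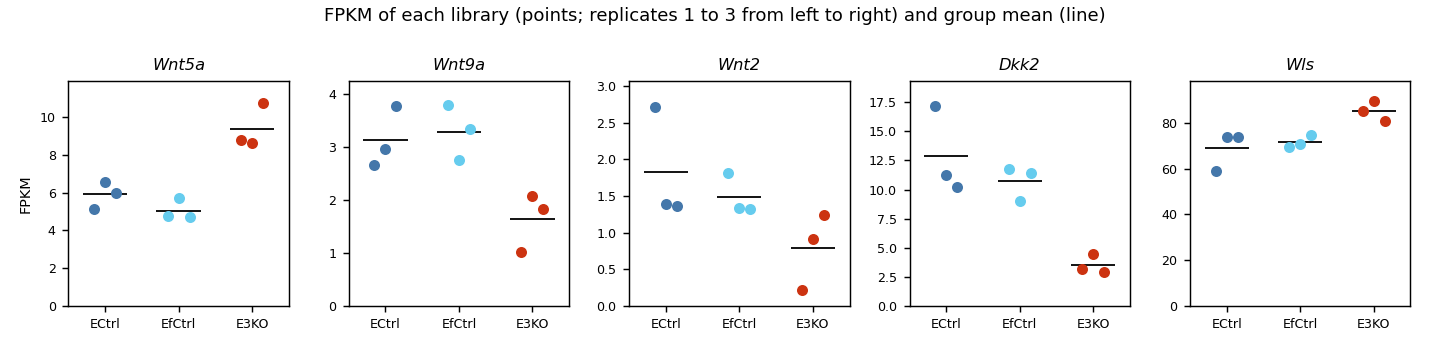
FPKM (vertical axes, linear, starting at 0) of the 3 Wnt ligand genes that passed the filter, of the inhibitor *Dkk2* and of *Wls*, with each library as a point and the group mean as a line. The E3KO libraries lie above all controls for *Wnt5a* (8.64 to 10.7) and *Wls* (81.1 to 89.6) and below them for *Wnt9a*, *Wnt2* and *Dkk2* (2.88 to 4.45).

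None of the other 5 lists held a called gene. Of 7 genes for ligand release, Norrin and R-spondins 3 were tested, and the highest, *Wls*, which carries Wnt proteins to the cell surface, ranged from 59.0 to 74.9 FPKM over the controls and from 81.1 to 89.6 over E3KO (difference 0.28, adjusted p = 0.163). Of 18 other receptors 11 were tested, led by *Gpr124*, a co-factor for WNT7 signals in brain vessels, at 34.0 to 41.5 and 27.5 to 35.8 FPKM (difference -0.24, adjusted p = 0.233). In 2 of these 11 the E3KO libraries lay entirely above or entirely below the controls, as in 16.2% of all genes tested. Among cytoplasmic transducers 12 of 13 were tested, led by the kinase gene *Csnk1a1* at 162 to 189 and 188 to 192 FPKM (adjusted p = 0.344). Among nuclear co-factors 8 of 11 were tested, led by the co-repressor gene *Tle1* (adjusted p = 0.355). Of 12 further target genes 5 were tested, and *Ccnd1*, which encodes cyclin D1, ranged from 55.7 to 81.7 FPKM over the controls and from 47.2 to 94.3 over E3KO (difference 0.11, adjusted p = 0.791). The differences of the leading genes without the library labelled E3KO replicate 1 were 0.28 for *Wls* (adjusted p = 0.217), -0.14 for *Gpr124* (adjusted p = 0.449), 0.14 for *Csnk1a1* (adjusted p = 0.359), -0.38 for *Tle1* (adjusted p = 0.154) and 0.37 for *Ccnd1* (adjusted p = 0.262), and none was called.

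Marker lists of the cell types moved as follows beside these results, and their part in the values of *Fzd6*, *Wnt5a* and *Dkk2* was not tested. The 7 lymphatic markers summed to 2527 to 3341 FPKM in ECtrl, 2467 to 2803 in EfCtrl and 2275 to 2566 in E3KO. Of the 7, 3 (*Prox1*, *Ccl21a* and *Reln*) were called lower in E3KO, against 2.88% of all genes tested. For these and *Mmrn1*, 4 of 7, all E3KO libraries were below all controls, against 11.3% of all genes tested. The 9 fibroblast and smooth muscle markers summed to 11.9 to 45.0, 25.6 to 77.1 and 10.1 to 22.8 FPKM, with 0 of 5 tested called. Only *Col1a1* among them had all E3KO libraries (0.0131 to 0.583) below all controls (0.591 to 6.67), and the others overlapped. The 8 leukocyte markers, with *Cd3e* listed at 0, summed to 41.7 to 129, 129 to 224 and 154 to 279 FPKM, with 0 of 4 tested called. *Itgam* was the only leukocyte marker with all E3KO libraries (1.66 to 1.98) above all controls (0.156 to 1.30), and the others overlapped. The 8 lung epithelial markers summed to at most 2.06 FPKM outside the library labelled E3KO replicate 1, where the sum was 49.5. *Scgb1a1* alone was at 46.2 FPKM in that library, against at most 1.87 in the controls. *Epcam* and *Sftpc* were also highest there, while *Cdh1*, *Sftpb*, *Krt8* and *Foxj1* were not, and *Nkx2-1* was listed at 0 in every library. The 10 endothelial markers summed to 3231 to 3875, 3501 to 3669 and 3736 to 4197 FPKM, and *Emcn* rose while *Cldn5* fell.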

How the data were processed

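RNA-seq of MLEC was analysed from the FPKM of each of 9 libraries, which the authors deposited as whole-series tables together with group FPKM, log2 fold changes, p-values and q-values. The columns of comparisons were not used. Per the labels and the methods, reads were aligned to mm10 with TopHat2 and Bowtie, and FPKM was estimated with Cufflinks (version 1.0.3 per the labels), Cuffmerge and Cuffdiff. The annotation and strand setting are not given in the sources used here. The library values were identical in the 3 tables (0 differences). The authors' group FPKM lay above all 3 E3KO libraries for 5 of the 10 genes. For *Fzd6* it was 102.7 in E3KO, and 134.7 in ECtrl and 126.3 in EfCtrl, each within the range of its libraries. The difference of *Fzd6* was thus smaller between group values than between means of libraries. How group and library values were scaled to each other is not given in the sources used here.

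Of 37104 loci, 3749 with a shared symbol and 2 without a value were left out. For the 11306 genes with a mean of at least 1 FPKM over all 9 libraries, log2(FPKM + 1) was modelled by group in limma 3.58.1 under R 4.3.3, with Benjamini-Hochberg adjustment over all of them and calls at an adjusted p under 0.05. A difference on this scale understates the change of low genes. For single genes, log2(FPKM + 1) was also tested by exact permutation, two-sided. Scripts ran under Python 3.11.15, and the fit was tested on simulated data. FPKM does not give the fragments per gene, so depth is unknown and no counting interval was derived. The p-values measure the spread between isolations.

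The 10 genes, the lists and the tests were chosen with earlier results of these data known. The genes named are the 10, the JNK genes, every called gene and the most abundant gene of each pathway list, and the 3 genes most like the member with the largest difference between E3KO and both controls among those tested. Symbols of the lists were matched by name or RefSeq synonym. One marker gene is not reported here by name. Replicate numbers came from the labels. The libraries are independent isolations, so the main fit has no block. Libraries with the same number did not deviate together in every pair, which does not settle whether they share a batch. Alternatives covered pseudocounts, filters, a mean-variance trend, centring, the replicate block, fits with only 2 groups and the omission of each library. Coordinates are those of the files, 1-based, and upstream sequences are from RefSeq GRCm38.p6.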

Additional observations from a re-analysis of the deposited data

Results flagged for a closer look

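*Dkk2* in ECtrl replicate 1, at 17.2 FPKM, was far above the other 5 control libraries (9.05 to 11.7), with a gap of 0.669 of the whole range, above the critical value of Dixon's test for 6 values. Of 24 checks of this kind it was the only one past that value, and chance passes about 1 in 20. Without this library the difference of *Dkk2* between E3KO and both controls was -1.40 (adjusted p = 0.0159 by limma).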

How the results depend on the processing

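The call of *Fzd6* against both controls rests on small margins. It was kept with pseudocounts of 0.1 and 0.5, both other filters and a mean-variance trend, and that trend also called it against ECtrl (1 of the 6 genes). With libraries centred on their median 0 of the 6 genes were called, *Ctnnb1* joined *Fzd6* as a gene without overlap (2 genes), and *Fzd4* (0.0823 against both controls, 0.0585 against ECtrl) and *Lrp5* (0.0659) turned positive. Same-numbered libraries correlated between -0.04 and 0.126 in their deviations, over 0.1 in 2 of 9 pairs, and 5 of 9 libraries correlated best with their own number. With the replicate block, calls against both controls were 0 of the 6 genes, 1 other pathway gene and 181 genes in all, with 1 gene in all against ECtrl and 1 against EfCtrl, and the adjusted p of *Fzd6* was 0.0748 and that of *Wnt5a* 0.0526. The block also ended the calls of *Dkk2* against ECtrl (0.0567) and EfCtrl (0.0916) and of *Wnt5a* against EfCtrl (0.102), as did a fit of 2 groups (0.139, 0.056 and 0.067). Without a filter the calls of *Dkk2* (0.0634) and *Wnt5a* (0.0551) against EfCtrl were lost, and that of *Wnt5a* also with pseudocounts of 0.1 (0.0541) and 0.5 (0.0501). Over all genes, calls against ECtrl were 95 without a filter and 0 in a fit of 2 groups. Calls against EfCtrl were 44 with a pseudocount of 0.1, 17 without a filter and 25 in a fit of 2 groups. The cause of these changes was not tested.

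Leaving out 1 library at a time gave 0 to 1 of the 6 genes, 0 to 2 other pathway genes and 9 to 384 genes in all called against both controls, 0 and 0 to 145 against ECtrl, 0 and 1 to 186 against EfCtrl, and 0 and 0 to 4 between the controls. Genes without overlap numbered 1 to 2 of the 6, a count that the omission of a library cannot lower. Genes with a permutation p under 0.05 numbered 1 to 3 of the 10. Pairs of neighbors that kept 1 order of levels in every control library numbered 6 to 7 of 9, where 5 libraries are too few for the sign-flip test to pass. Signs turned for *Fzd4* (-0.0764 to 0.0953 against both controls, -0.17 to 0.17 against ECtrl, -0.0537 to 0.0964 against EfCtrl, -0.19 to 0.15 between the controls), *Lrp5* (-0.13 to 0.13 against both controls), *Lrp6* (-0.0545 to 0.0883 against EfCtrl), *Tcf7l2* (-0.0547 to 0.0738 between the controls) and *Ccnd1* (-0.12 to 0.37 against both controls). Each of these was uncalled throughout. The unknown number of fragments limits the 4 genes under 1 FPKM most.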
